A study of Mus musculus with 3 samples.

Results

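Group 1 innate lymphoid cells (ILC1) were set against CD11b+ myeloid cells of the same tissue, using 2 of the 3 RNA-seq libraries of the series and every one of the 37224 genes in the deposited count tables. The libraries were chosen by their cell type label alone. All 3 populations came from the intestinal epithelium of RAG-2 null mice, which lack a recombinase subunit needed to assemble antigen receptors and so have no mature T or B cells of the usual kind. The ILC1 library came from NKp46+NK1.1+ cells and the CD11b+ library from CD45+CD8alpha-CD11b+ cells. As described, the ILC1 gate makes no cut on CD11b and the CD11b+ gate makes none on NKp46 or NK1.1. The third population, iCD8a (CD45+CD8alpha+), appears here only as a further value beside some results. Each population had 1 library, so every difference below is between 2 libraries, without replicates and without a test. The age and sex of the mice, and whether cells of several mice were pooled, are not given in the sources here.

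Group 1 innate lymphoid cells are lymphocytes without rearranged antigen receptors that answer interleukin 12, interleukin 15 and interleukin 18 with interferon gamma and, in the natural killer (NK) members of the group, with cytotoxic granules. CD11b, the integrin chain encoded by Itgam, marks macrophages, monocytes, granulocytes and many dendritic cells, and is also carried by some NK cells. In the gut, macrophages and dendritic cells take up microbes and dying cells, present their peptides on MHC class II, and supply cytokines that act on the lymphocytes beside them.

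The ILC1 library held 22181660 counts on genes and the CD11b+ library 30511296. Levels are given in CPM, which divides each count by the library total, and were scaled by TMM, a method that sets the bulk of genes level between libraries. A fold is the ratio of such levels, and the range after it is a 95% exact interval that covers counting error only, not the spread between animals. A gene with 0 counts gives a level below 0.136 CPM in ILC1 and below 0.106 CPM in CD11b+, the limit that 3 counts set. No count fell on Rag2, the gene that the genotype names, in either library (0 and 0). Without a library from mice that carry RAG-2, this does not test the genotype. Genes of the mitochondrial genome held 2.09% of gene counts in ILC1 and 9.53% in CD11b+. The sorted proteins were matched by their transcripts, with Ncr1 (NKp46) at 396 CPM in ILC1 and 2.23 CPM in CD11b+, Klrb1c (NK1.1) at 546 and 14.7 CPM, and Itgam (CD11b) at 187 and 845 CPM. The markers set for each side ran the same way. Eomes and Xcl1 were higher in ILC1, and Lyz2 and Cd74 were higher in CD11b+, with values given below.

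Of 13348 genes with at least 1 CPM in either library, 645 were counted as higher in ILC1, which is 4.83% of the genes tested, and 1391 as higher in CD11b+, which is 10.4%. To be counted, a gene needed a level of 5 CPM or more in the higher library, a fold of 4 or more, and an interval whose near bound was 2 or more, which 15.3% of genes met in either direction. Below, a gene counted in a library is one that was counted as higher there. Numbers counted within a list are to be read against these shares of all genes tested, 4.83% for ILC1 and 10.4% for CD11b+. In 57.9% of genes the libraries lay within 2-fold of each other. The median log2 ratio of ILC1 over CD11b+ was 0.00, with quartiles of −0.95 and 0.72. The tails were unequal. The lowest 5% of genes lay at or below −4.46, and the highest 5% at or above 2.31. Of the genes higher in CD11b+, 79 fell in the class of 256-fold or more, against 15 of those higher in ILC1. That class also takes every counted gene without a count in the other library, whatever its level. Such genes made up 30 of the 79 and 5 of the 15, so a fold of 256 is not shown for each of them. Between 4-fold and 8-fold the numbers were 448 and 348. In bulk libraries, fewer cells of a type and less RNA per cell cannot be told apart, and this holds for every ratio below.

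**Figure D1:**
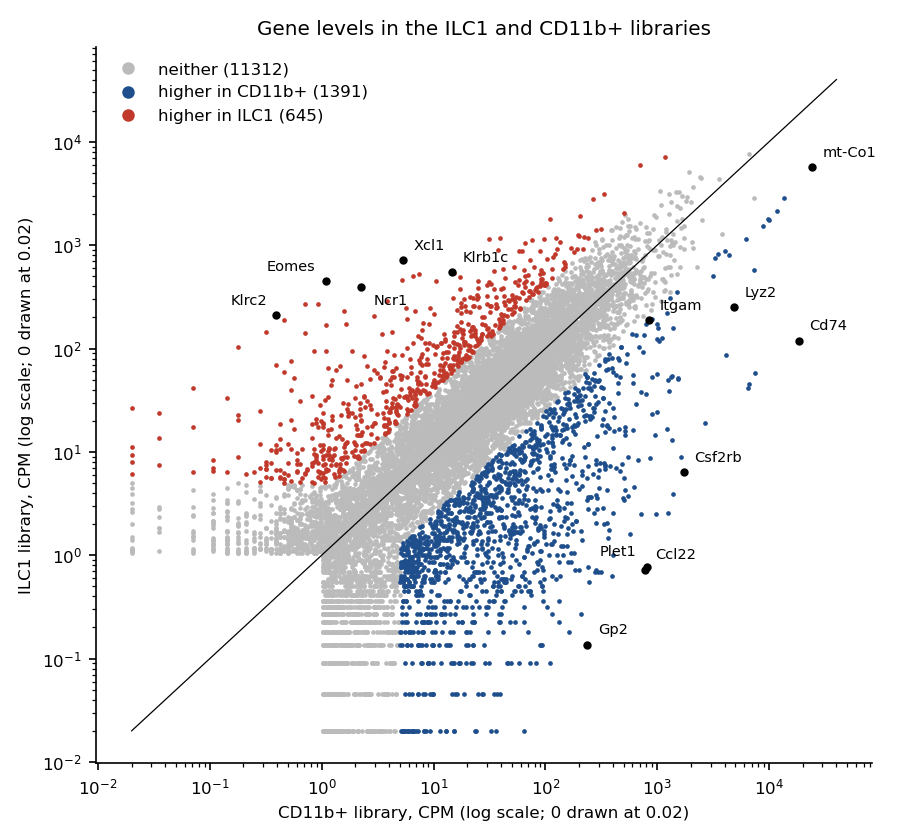
Level of each of the 13348 tested genes in the CD11b+ library (x axis, CPM, log scale) and in the ILC1 library (y axis, CPM, log scale), with the line of equal level; red points are the 645 genes counted as higher in ILC1, blue points the 1391 counted as higher in CD11b+, grey points neither, and black points are named genes. The blue cloud spreads farther from the line than the red one, down to genes such as Gp2 at 237 CPM in CD11b+ and 0.136 CPM in ILC1.

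**Figure D2:**
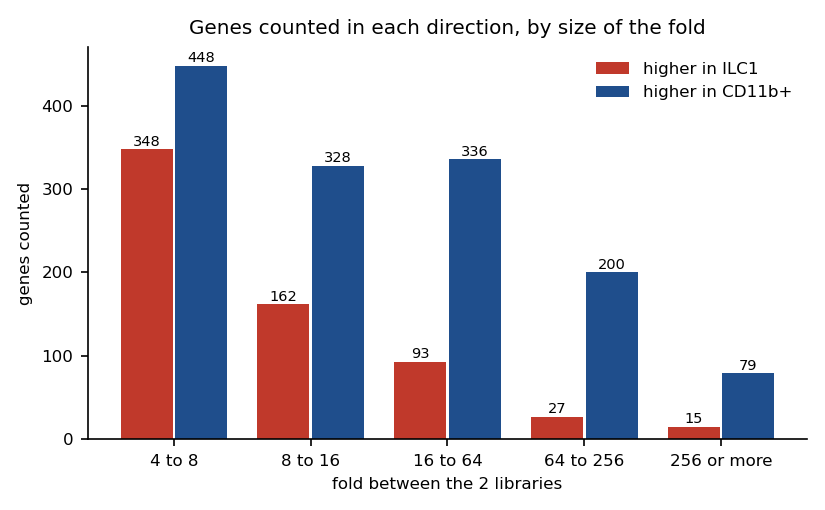
Number of genes counted as higher in ILC1 (red bars) and in CD11b+ (blue bars), by the fold between the libraries. In the class of 4-fold to 8-fold the bars stand at 348 and 448, and in the class of 256-fold or more at 15 and 79. The latter class includes genes without a count in the other library, whatever their level, 5 of the 15 and 30 of the 79.

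Genes higher in ILC1 together took 12.1% of the gene counts of the ILC1 library and 1.52% of those of CD11b+. Genes higher in CD11b+ took 28.3% of the CD11b+ counts and 3.33% of those of ILC1. The difference was not limited to weakly expressed genes. Among the 162 genes that reached 1000 CPM in the higher library, 20 were higher in ILC1 and 41 in CD11b+. Tnfaip3, a brake on NF-kappaB signalling, stood at 7193 CPM in ILC1 and 1183 CPM in CD11b+. Vps37b, a subunit of an endosomal sorting complex, stood at 5898 and 707 CPM. At the edge of the count, Trip4, Nxpe3 and Hmces were just inside for ILC1 with folds of 4.0, 4.01 and 4.02, and Tcte2, Rnf138 and Mndal were just outside, each at 3.99. For CD11b+, Dpy19l1 and Myo1d were just inside, at 4.01 and 4.02, and Hes1, Pde1b and Ccnf just outside, at 3.99, 3.98 and 3.98.

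Among the genes set widest apart on the ILC1 side were several receptors and regulators known from NK cells. Klrc2, the activating receptor chain NKG2C, was at 209 CPM in ILC1 and 0.39 CPM in CD11b+, and Klrc1, its inhibitory counterpart NKG2A, at 272 and 0.709 CPM. Eomes, a T-box transcription factor of NK cells, was at 448 CPM against 1.1 CPM. Zfp683, which encodes the residency factor Hobit, was at 41.9 CPM against 0.0709 CPM, a level that rests on 2 counts in CD11b+, so its fold of 592 has an interval of 163 to 4892. Samd3, a little characterised gene, was at 103 CPM in ILC1 and 0.177 CPM in CD11b+, a 584-fold difference (249.7 to 1799). Xcl1, a chemokine that draws cross-presenting dendritic cells, was at 711 and 5.35 CPM, and Cpne7, a calcium-binding copine, at 230.5 and 1.6 CPM. Sh2d1a, the SLAM adaptor SAP, had 582 counts in ILC1 and 0 in CD11b+, which makes it at least 249-fold higher in ILC1.

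On the CD11b+ side the genes set widest apart were of varied function. Rtn1, a reticulon of the endoplasmic reticulum, was at 163 CPM in CD11b+ and 0.182 CPM in ILC1, an 898-fold difference (351 to 3298). Havcr2, which encodes the inhibitory receptor TIM-3, was at 571 and 1.59 CPM, a 359-fold difference (258 to 515). Apol7c, an apolipoprotein L gene, was at 402 and 1.0 CPM, and Stra6l, a retinol transporter also named Rbpr2, at 295 and 0.682 CPM. Procr, which encodes the protein C receptor of endothelium and some leukocytes, had 1809 counts in CD11b+ and 0 in ILC1, which makes it at least 470.4-fold higher in CD11b+.

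Promoter sequence was set beside these lists for a pair of short motifs linked to the lineages, the PU box GAGGAAG, bound by the myeloid factor PU.1, and the T-box motif GGTGTGA, bound by factors such as T-bet and Eomes. Each was searched on both strands in RefSeq windows of 300 bases (250 before to 50 after a start, build GRCm38.p6). The PU box was found in 264 of 1336 promoters of genes higher in CD11b+ (19.8%), in 97 of 587 of genes higher in ILC1 (16.5%) and in 13.6% of all 32851 promoters. The T-box motif was found in 3.37%, 3.92% and 3.98% of the same sets. Both motifs occurred together in 166 of all 32851 promoters. Among promoters of genes tested but counted in neither direction, the PU box was found in 13.0% and the T-box motif in 3.48%. Printed below, 5′ to 3′ in the direction of the gene, are the 250 bases before the start for 2 genes per direction that stood among the widest apart and held a motif there. They are shown so that the letters behind the shares can be read. Capitals mark the T-box motif in Xcl1 (chr1:164935523-164935772, minus strand) and Samd3 (chr10:26229457-26229706, plus strand), and the PU box in Rtn1 (chr12:72236728-72236977, minus strand, the first of the gene's starts in the table to hold it) and Havcr2 (chr11:46454681-46454930, plus strand). Samd3 also held 1 PU box in its window, as cttcctc on the opposite strand, which is left in lower case. In Samd3 and Rtn1 the capitalised match lies on the opposite strand and reads as the reverse complement.
Xcl1: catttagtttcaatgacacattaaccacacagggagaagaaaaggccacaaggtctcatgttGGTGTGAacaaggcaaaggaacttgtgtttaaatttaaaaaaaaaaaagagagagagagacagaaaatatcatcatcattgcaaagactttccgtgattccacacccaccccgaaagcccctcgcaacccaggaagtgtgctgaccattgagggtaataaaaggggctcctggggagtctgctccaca
Samd3: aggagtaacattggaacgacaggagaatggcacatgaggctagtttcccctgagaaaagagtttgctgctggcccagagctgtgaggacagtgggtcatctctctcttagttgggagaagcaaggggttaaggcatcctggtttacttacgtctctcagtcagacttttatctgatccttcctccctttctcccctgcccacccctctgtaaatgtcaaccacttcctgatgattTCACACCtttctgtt
Rtn1: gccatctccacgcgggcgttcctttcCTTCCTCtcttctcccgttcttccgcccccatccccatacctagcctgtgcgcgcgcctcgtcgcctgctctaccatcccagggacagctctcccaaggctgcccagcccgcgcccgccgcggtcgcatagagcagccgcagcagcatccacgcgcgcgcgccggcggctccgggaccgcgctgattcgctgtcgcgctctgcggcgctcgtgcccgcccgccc
Havcr2: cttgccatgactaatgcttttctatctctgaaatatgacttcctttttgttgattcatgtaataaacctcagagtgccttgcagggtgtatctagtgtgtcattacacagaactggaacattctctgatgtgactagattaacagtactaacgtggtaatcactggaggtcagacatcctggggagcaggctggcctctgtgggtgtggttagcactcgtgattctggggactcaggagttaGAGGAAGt
A match of this kind is not a shown binding site, and most promoters in each set held neither motif.

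Receptors that switch NK cells on were mostly ILC1 genes. Of 15 measured activating receptors and adaptors, 12 were higher in ILC1 and 0 in CD11b+. The median log2 ratio of the list was 4.58, beside 0.00 over all genes tested. Klrk1, the stress-ligand receptor NKG2D, was at 895 CPM in ILC1 and 37.5 CPM in CD11b+ (23.9-fold, 22.5 to 25.5). Cd160, a receptor for MHC class I and HVEM, was at 246 and 9.36 CPM. Cd226, the receptor DNAM-1, was at 94.7 and 3.83 CPM. The 3 members not counted are signalling or Fc receptor parts that phagocytes use as well. Tyrobp, the adaptor DAP12, was at 394 CPM in ILC1 and 726 CPM in CD11b+, Fcer1g at 409.6 and 331 CPM, and Fcgr3, the receptor CD16, at 85.8 and 208 CPM. Hcst, the adaptor DAP10 that NKG2D signals through, was counted as higher in ILC1, at 59.0 and 7.51 CPM.

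Inhibitory receptors were divided. Of 13 measured, 7 were higher in ILC1 and 3 in CD11b+ (median 2.59, or 1.85 over all 14 members found). Klrc1, Klre1, Klrb1b, Klri2, Klrg1, Tigit and Cd96 were the 7, although Klri2, kept in this list, is known as an activating partner of Klre1. Tigit, which competes with DNAM-1 for the same ligands, was at 149.6 CPM in ILC1 and 7.83 CPM in CD11b+. The 3 in the other direction were Havcr2, Lair1, a collagen receptor, at 9.09 and 109 CPM, and Ceacam1, an adhesion receptor, at 4.18 and 93.1 CPM. Of 11 Ly49 receptors (Klra genes, which bind MHC class I), 8 were higher in ILC1, with a median of 7.42, or 6.70 with genes at 0 set to their bound. Klra4 was at 145 and 0.319 CPM and Klra8 at 187 and 0.461 CPM. Klra2 was counted in CD11b+, at 138 CPM against 1.91 CPM in ILC1 (72.3-fold, 53.4 to 101). Klra10 had 110 counts in ILC1 and 0 in CD11b+ but just missed the level of 5 CPM, and was counted with DESeq2 or upper-quartile scaling. Klra and Klrc genes are close copies of each other, and reads that map to several copies were not counted, so single values of these families are uncertain.

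Transcription factors of lymphocytes were higher in ILC1 for 14 of 24 measured and in CD11b+ for 2, with a median of 2.36. Tbx21, which encodes T-bet, was at 330.4 CPM in ILC1 and 24.2 CPM in CD11b+ (13.6-fold, 12.6 to 14.8). Tcf7, the factor TCF1 of early and memory lymphocytes, was at 502 and 6.52 CPM (77.0-fold, 66.6 to 89.6). Rora was at 487 and 17.3 CPM, and Gata3 at 114 and 6.52 CPM. Ets1, a factor needed for NK cell development, was at 1794 and 109 CPM. Id2, the shared regulator of innate lymphoid cells, which dendritic cells also need, was at 488 and 173 CPM and was not counted. Id3, at 8.13 and 63.4 CPM, and Prdm1, which encodes Blimp-1, at 36.7 and 151 CPM, were higher in CD11b+, the latter at 4.11-fold and no longer counted with unscaled or upper-quartile levels.

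Myeloid transcription factors ran the other way for 13 of 23, with 2 higher in ILC1 and a median of −2.23. Spi1, which encodes PU.1, was at 715 CPM in CD11b+ and 2.5 CPM in ILC1 (286-fold, 219.8 to 380.0). Irf4, which acts in CD11b+ dendritic cells, was at 297 and 30.1 CPM. Batf3, a factor of cross-presenting dendritic cells, was at 43.3 and 1.54 CPM. The 2 members higher in ILC1 were Irf8, a factor of monocytes and dendritic cells that NK cells also use, at 1183 CPM in ILC1 and 239 CPM in CD11b+ (4.94-fold, 4.81 to 5.08), and Maf, at 214 and 40.1 CPM.

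Receptors for the cytokines that drive ILC1 stood on the ILC1 side. Of 16 genes of the interleukin 2 and interleukin 15 family, 7 were higher in ILC1 and 0 in CD11b+ (median 1.63). Il2rb, the chain that both cytokines share, was at 2825 CPM in ILC1 and 264 CPM in CD11b+ (10.7-fold, 10.4 to 10.9). Il2ra, the high-affinity chain CD25, was at 139.5 and 3.47 CPM, and Il7r at 259 and 23.2 CPM. Of the cytokines, Il15 was within 2-fold, at 6.0 and 8.15 CPM, and Il2 was low in both libraries, at 0.727 and 0.0354 CPM. Cish, which STAT5 induces and which damps these receptors, was at 415 and 56.7 CPM.

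The interleukin 12, interleukin 18 and interferon gamma axis was split by role. It had 6 of 15 measured members higher in ILC1 and 6 in CD11b+ (median 0.66, which turned to −0.15 over all 16 members found). Il12rb2, the signalling chain of the interleukin 12 receptor, was at 882 CPM in ILC1 and 58.3 CPM in CD11b+. Il18r1 was at 465 and 5.18 CPM (89.8-fold, 76.3 to 106), and Stat4, which relays interleukin 12, at 453 and 67.1 CPM. Ifng, the product of the axis, was at 208 CPM in ILC1 and 2.91 CPM in CD11b+ (71.6-fold, 57.5 to 90.1). The members higher in CD11b+ were the cytokine genes Il12b, Il18, Il23a, Il27 and Ebi3 and the receptor chain Ifngr2. Il12b was at 8.19 CPM in CD11b+ and had 0 counts in ILC1, which makes it at least 60.1-fold higher. Ifngr2 was at 2.14 CPM in ILC1 and 186 CPM in CD11b+ (87.3-fold, 65.6 to 119), while the other chain, Ifngr1, was at 1946 and 515 CPM, a 3.78-fold difference that was counted only with unscaled or upper-quartile levels.

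Cytotoxic genes were higher in ILC1 for 7 of 16, with a median of 2.02. Prf1, the pore-forming perforin, was at 325 CPM in ILC1 and 30.2 CPM in CD11b+ (10.8-fold). Gzmc was at 450.4 and 24.8 CPM, Nkg7 at 714 and 73.1 CPM, and Fasl, the death ligand, at 228 and 19.7 CPM. The main granzymes did not follow. Gzmb was near level, at 1449 CPM in ILC1 and 1198 CPM in CD11b+ (1.21-fold, 1.19 to 1.23), and Gzma lay toward CD11b+, at 1076 and 2043 CPM (1.9-fold, 1.87 to 1.93). Lamp1, a membrane protein of all lysosomes, was the member counted in CD11b+, at 171 and 789.6 CPM. In the iCD8a library Gzma stood at 25743 CPM and Gzmb at 14623 CPM. Whether cells or RNA of that population contributed to the CD11b+ values was not tested.

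Signalling genes that act just below lymphocyte receptors were higher in ILC1 for 13 of 18 and in CD11b+ for 0, with a median of 3.56. Sh2d2a, the T cell adaptor TSAd, was at 1184 CPM in ILC1 and 39.1 CPM in CD11b+ (30.3-fold, 28.5 to 32.2). Cd2, an adhesion receptor, was at 95.6 and 1.88 CPM. Lcp2, Vav1 and Plcg1, which myeloid cells use below their Fc receptors, were at 384 and 306, 214 and 171, and 35.6 and 39.0 CPM, and were not counted. The level in CD11b+ was a median of 8.50% of that in ILC1 over the 18 genes.

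Some parts of the T cell receptor were found as transcripts in the ILC1 library. Counts per gene do not show whether a segment was rearranged, so they do not test the RAG-2 genotype. In a list of T cell receptor, CD3 and accessory genes, 9 of 16 measured members were counted in ILC1 and 3, Cd4, Cd6 and Cd8a, in CD11b+. Those 3 encode coreceptors or accessory molecules, not receptor or CD3 chains. Trbc1, a constant segment of the beta chain, was at 222 CPM in ILC1, 17.5 CPM in CD11b+ and 214 CPM in iCD8a. Across all 28 measured T cell receptor segments, 16 were higher in ILC1 and 0 in CD11b+ (median 3.53), and the variable segment Trdv4 was at 68.0 and 1.45 CPM. Trac, the alpha constant segment, was near level, at 3.77 and 3.3 CPM. Among signalling chains the order differed by gene. Cd247, the zeta chain that NK receptors also use, was at 64.8 CPM in ILC1 and 1.13 CPM in CD11b+, whereas Cd3g was at 54.1 and 205 CPM and Cd3e at 0.364 and 1.38 CPM, neither of them counted. Costimulatory receptors stood in ILC1, with Cd28 at 75.9 and 0.532 CPM and Icos at 192 and 5.85 CPM. Cd8a, whose protein the CD11b+ gate excludes, was at 4.41 CPM in ILC1, 28.3 CPM in CD11b+ and 2636 CPM in iCD8a.

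Genes of other innate lymphoid subsets and of tissue residence were partly on the ILC1 side. Of 18 measured ILC2 and ILC3 genes, 7 were counted in ILC1 and 0 in CD11b+ (median 1.01). Kit was at 934 CPM in ILC1 and 170.5 CPM in CD11b+, Calca, which encodes the neuropeptide CGRP, at 28.5 and 0.957 CPM, and Il23r at 9.18 and 1.95 CPM. Il22, the ILC3 cytokine that acts on epithelium, was at 83.1 and 44.2 CPM and was not counted. Of 20 residency and egress genes, 7 were higher in ILC1, and Ccr7, which guides dendritic cells to lymph nodes, was the member higher in CD11b+, at 343 CPM against 15.7 CPM. Itga1, the CD49a chain of resident ILC1, was at 303 and 52.7 CPM, and Itga2, the CD49b chain of circulating NK cells, at 51.3 and 3.33 CPM. Itgae, the CD103 chain that binds E-cadherin, was at 315 and 959.9 CPM and was not counted.

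**Figure D3:**
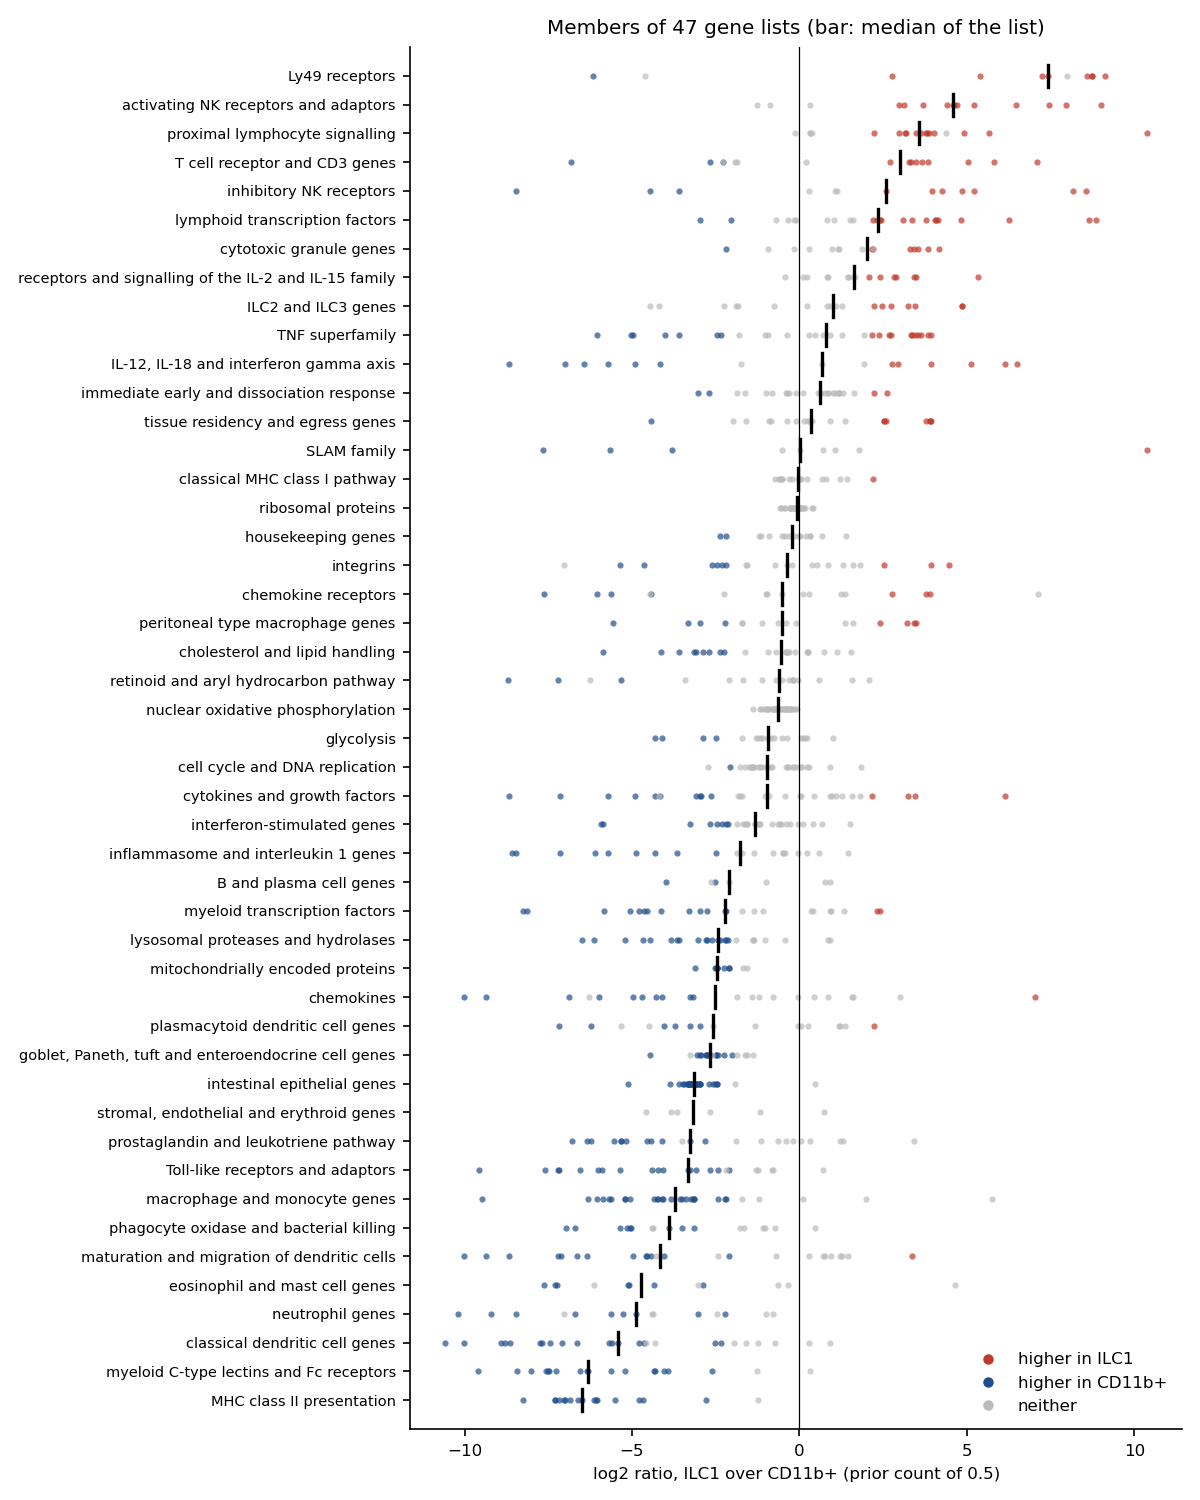
Log2 ratio of ILC1 over CD11b+ (x axis, prior count of 0.5) for the measured members of each of the 47 gene lists (rows, ordered by median); each point is a gene, red when counted as higher in ILC1, blue when higher in CD11b+ and grey when neither, and the black bar is the median of the list. Ly49 receptors have the highest median, 7.42, and MHC class II presentation the lowest, −6.49.

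Antigen presentation on MHC class II had the lowest median of the 47 lists. Of 17 measured genes, 16 were higher in CD11b+ and 0 in ILC1, with a median of −6.49. Cd74, the invariant chain, was at 18551 CPM in CD11b+ and 119 CPM in ILC1 (156-fold, 151 to 163), and H2-Ab1 at 7529 and 57.7 CPM. Ciita, the master regulator of these genes, was at 329.9 and 2.86 CPM (115-fold, 90.0 to 150.1). Ifi30, a reductase that unfolds antigens, was at 856 and 8.77 CPM. The member not counted was H2-Eb2, at 6.1 and 2.59 CPM. Over the 17 genes ILC1 stood at a median of 1.11% of the CD11b+ level. Genes of MHC class I, which all nucleated cells use, did not follow. Their median over 17 genes was −0.05, which turned to 0.054 with unscaled levels and to 0.036 with upper-quartile scaling. The member counted was Nlrc5, the regulator of class I genes, at 389.5 CPM in ILC1 and 84.5 CPM in CD11b+.

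Of 30 genes typical of macrophages and monocytes, 25 were counted in CD11b+ and 0 in ILC1, with a median of −3.70. Csf1r, the receptor for macrophage growth factor, was at 959.6 CPM in CD11b+ and 14.4 CPM in ILC1 (66.6-fold, 59.6 to 74.7). Lyz2, a lysozyme, was at 4844 and 252 CPM (19.2-fold, 18.7 to 19.7), and C1qa, a complement subunit of tissue macrophages, at 185 and 17.7 CPM. Ccr2 and Fn1, genes of monocytes and other cells, were not counted, at 331 and 355 CPM and at 896 and 271 CPM. Over the list, ILC1 stood at a median of 7.69% of the CD11b+ level. In iCD8a, Lyz2 was at 6.52 CPM, Fn1 at 1.4 CPM, Apoe at 8.0 CPM against 157 CPM in ILC1, and Csf1r at 1.44 CPM. Summed over the list, iCD8a reached 990 CPM, ILC1 1626 CPM and CD11b+ 13435 CPM. The low genes named for iCD8a therefore do not stand for the list. A list of genes linked to peritoneal macrophages had 4 of 16 members higher in ILC1 and 4 in CD11b+. The median of this list was −0.53, and 10 of its 16 members lay below 0. Its summed level was 1877 CPM for ILC1, against 6726 CPM for CD11b+. Toward ILC1 lay Prg4, a lubricating proteoglycan, at 56.0 CPM in ILC1 and 5.0 CPM in CD11b+. Cd5l, a macrophage-secreted protein, lay likewise at 8.36 and 0.886 CPM, and Saa3, a serum amyloid, at 21.5 and 1.99 CPM. Gata6, the defining factor of those macrophages, was at 0.682 and 2.27 CPM. The part of such cells in the ILC1 library was not tested.

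Dendritic cell genes differed more widely than macrophage genes in the median. Of 25 measured, 17 were higher in CD11b+ and 0 in ILC1, with a median of −5.43. Plet1 was at 813 CPM in CD11b+ and 0.772 CPM in ILC1 (1053-fold, 658 to 1808). Cd209a, a lectin of CD11b+ dendritic cells, was at 314 and 0.682 CPM, Flt3, the receptor for their growth factor, at 279.7 and 0.682 CPM, and Sirpa at 623 and 4.54 CPM. Gp2, a glycoprotein that binds bacteria, was at 237 CPM in CD11b+, with 3 counts in ILC1 (1741-fold, 596 to 8446). Xcr1 and Clec9a, markers of the cross-presenting subset, were at 3.47 and 4.27 CPM and at 3.97 and 0.182 CPM, below the level needed to be counted. Zbtb46, a factor of classical dendritic cells, was not counted, at 49.2 and 92.2 CPM. Genes of dendritic cell maturation and migration were higher in CD11b+ for 13 of 24, with a median of −4.16. Ccl22, a chemokine of mature dendritic cells, was at 771 and 0.727 CPM (1061-fold, 653 to 1857), and Fscn1, an actin bundler, at 27.0 and 1.14 CPM. Tnfrsf9, the receptor 4-1BB, was the member higher in ILC1, at 182 and 17.7 CPM.

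**Figure D4:**
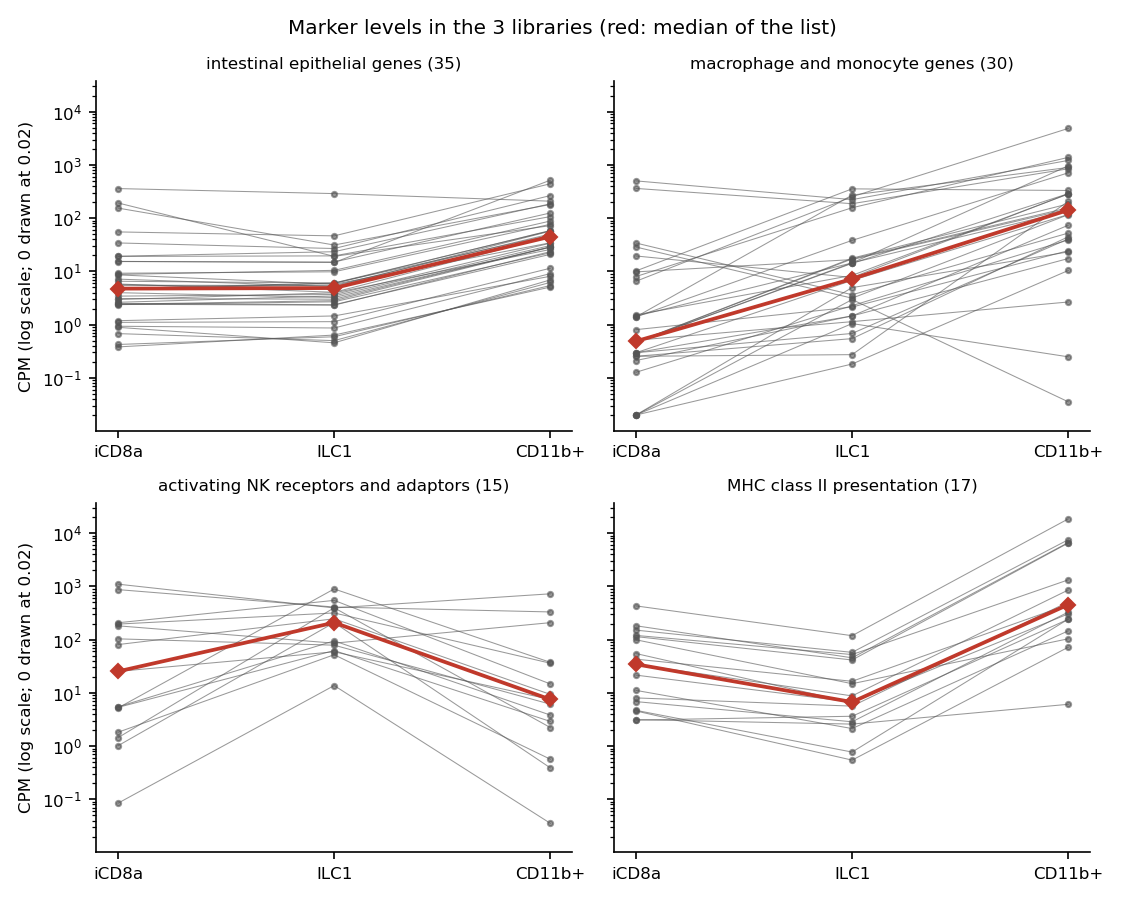
Level (y axis, CPM, log scale) of the measured members of 4 gene lists in the iCD8a, ILC1 and CD11b+ libraries; each grey line is a gene and the red line is the median of the list. The lines of 34 of 35 epithelial genes are higher at CD11b+ than at ILC1 (summed level 2957 CPM, against 582 CPM in ILC1 and 962 CPM in iCD8a), and those of MHC class II genes reach up to 18551 CPM there.

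Sensors of microbes were mostly CD11b+ genes. Of 23 Toll-like receptors and adaptors, 17 were higher in CD11b+ and 0 in ILC1, with a median of −3.33. Tlr13, which senses bacterial ribosomal RNA, was at 119.9 CPM in CD11b+ and 2.0 CPM in ILC1. Tlr11 was at 15.1 CPM in CD11b+, at least 111-fold higher than in ILC1, where it had 0 counts. The shared adaptor Myd88, which interleukin 18 receptors also need, was at 127 and 54.2 CPM and was not counted. Myeloid C-type lectins and Fc receptors were higher in CD11b+ for 17 of 19, with a median of −6.30. Clec7a, the beta-glucan receptor dectin-1, was at 1629 and 8.91 CPM (183-fold, 159 to 212), and Card9, its adaptor, at 169 and 0.863 CPM. By gene name alone, 14 of 21 measured Clec genes were higher in CD11b+ and 0 in ILC1.

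Inflammatory output followed the sensors in part. Of 20 inflammasome and interleukin 1 genes, 9 were higher in CD11b+ and 0 in ILC1, with a median of −1.78. Il1b was at 2694 CPM in CD11b+ and 18.8 CPM in ILC1 (143-fold, 130.0 to 158), its decoy receptor Il1r2 at 1373 and 3.91 CPM, and the sensor Nlrp3 at 515 and 17.5 CPM. Execution genes were near level, with Casp1 at 64.4 and 48.2 CPM and Gsdmd at 148 and 105 CPM. Of 23 prostaglandin and leukotriene genes, 12 were higher in CD11b+ and 0 in ILC1, with a median of −3.26. Ptgs2, the inducible cyclooxygenase, was at 1233 and 16.6 CPM (74.1-fold, 66.9 to 82.4), and Alox5ap, the 5-lipoxygenase activator, at 354 and 4.32 CPM. Lta4h, which makes leukotriene B4, was level, at 307 and 315 CPM.

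Genes for killing and degrading what phagocytes take up were also higher in CD11b+. Oxidase and bacterial killing genes were counted there for 9 of 17 and in ILC1 for 0, with a median of −3.90. Cybb, the membrane subunit of the phagocyte oxidase, was at 988 CPM in CD11b+ and 24.1 CPM in ILC1, and Mpeg1, a pore-forming protein of phagosomes, at 1363 and 13.1 CPM. Rac2, a GTPase that all leukocytes use, was at 502 and 687 CPM and was not counted. Lysosomal genes were counted in CD11b+ for 17 of 25, with a median of −2.45. Psap, the precursor of saposins, was at 7330 and 578 CPM, and Ctsz, a cathepsin, at 794 and 36.3 CPM. Ctsd, another cathepsin, lay toward ILC1 without being counted, at 214 CPM in CD11b+ and 405 CPM in ILC1.

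Chemokines were counted mainly in CD11b+ and their receptors in either library. Of 22 measured chemokines, 10 were higher in CD11b+, and Xcl1 was the member higher in ILC1, with a median of −2.53. Cxcl2, which attracts neutrophils, was at 325 CPM in CD11b+ and 33.4 CPM in ILC1, and Cxcl16 at 485 and 7.68 CPM. Ccl5, which both kinds of cell secrete, was at 632 and 848 CPM and was not counted. Of 17 chemokine receptors, 3 were higher in ILC1, Cxcr3 and Cxcr6 among them, and 4 in CD11b+, namely Ccr1, Ccr3, Ccr7 and Cx3cr1. Ccr1 was at 4.5 CPM in ILC1 and 299.7 CPM in CD11b+. Ccr8 had 61 counts in ILC1 and 0 in CD11b+, below the level needed.

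Cytokines and the TNF superfamily were shared out by gene. Of 30 cytokines, 4 were higher in ILC1 (Ifng, Ltb, Il16 and Csf2) and 10 in CD11b+, with a median of −0.97. Osm, oncostatin M, was at 145 CPM in CD11b+ and 18.7 CPM in ILC1. Tgfb1 was near level, at 838 and 1134 CPM. Of 28 TNF superfamily genes, 11 were counted in ILC1 and 7 in CD11b+ (median 0.80). Tnfsf14, the ligand LIGHT, was at 114 CPM in ILC1 and 9.18 CPM in CD11b+, and Tnfrsf25, the receptor DR3, at 25.9 and 1.7 CPM. Cd40, through which T cells license dendritic cells, was at 59.4 CPM in CD11b+ and 1.86 CPM in ILC1. Integrins divided by subunit, 3 of 21 in ILC1 (Itga1, Itga2 and Itgb3) and 6 in CD11b+. Itgb3 was at 377 and 17.1 CPM, and Itgb5, which pairs with the same alpha V chain, at 2.68 and 110.2 CPM, while that chain, Itgav, was at 210.3 and 85.7 CPM and was not counted.

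Ligands and receptors were then read as pairs. Of 64 listed pairs, 54 had both partners measured, and in 20 of these the ligand was higher in 1 library and the receptor in the other. In 14 of the 20 the ligand was the CD11b+ gene and the receptor the ILC1 gene. Il18 was at 15.4 CPM in CD11b+ and 0.273 CPM in ILC1, and its receptor chains Il18r1 and Il18rap were the ILC1 genes, the latter at 535 and 15.4 CPM. Cxcl16 and its receptor Cxcr6, at 311 CPM in ILC1 and 22.6 CPM in CD11b+, lay apart likewise, as did Cxcl9 and Cxcr3. Pvr, the poliovirus receptor, was at 105 CPM in CD11b+ and 12.4 CPM in ILC1, and its partners Tigit, Cd226 and Cd96 were all ILC1 genes. The costimulatory ligands Cd80 and Cd86, at 176 and 286 CPM in CD11b+ and 1.73 and 2.04 CPM in ILC1, faced Cd28. Cd80 also faced the inhibitory receptor Ctla4, at 100 CPM in ILC1 and 15.3 CPM in CD11b+.

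The other 6 pairs had the ligand in ILC1. Csf2, which encodes the growth factor GM-CSF, was at 26.2 CPM in ILC1 and 2.76 CPM in CD11b+. Its receptor chain Csf2rb was at 6.32 CPM in ILC1 and 1742 CPM in CD11b+ (276-fold, 234 to 328), and Csf2ra at 23.1 and 898 CPM. Ifng faced Ifngr2, and Ltb and Tnfsf14 faced Ltbr, the lymphotoxin beta receptor, at 6.86 and 83.9 CPM. Tnfsf11, the cytokine RANKL, was at 15.4 CPM in ILC1 and 2.3 CPM in CD11b+, and its receptor Tnfrsf11a at 0.5 and 34.2 CPM. In 3 pairs both partners lay in the same library, Csf1 with Csf1r and Il10 with Il10ra in CD11b+, and Tnfsf10 with Tnfrsf10b in ILC1. Il10ra was at 4.21-fold and was not counted with unscaled or upper-quartile levels. In the remaining 31 measured pairs at most 1 partner was counted, among them Xcl1, whose receptor Xcr1 was low in both libraries. Among these 31, the receptor alone was counted in ILC1 in 12 pairs and in CD11b+ in 3. The pairs were listed from general knowledge with earlier results of these data known, so their split is no independent result. Some genes, such as Pvr and Cd226, also recur in several pairs. All values are transcript levels, and no binding was measured.

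**Figure D5:**
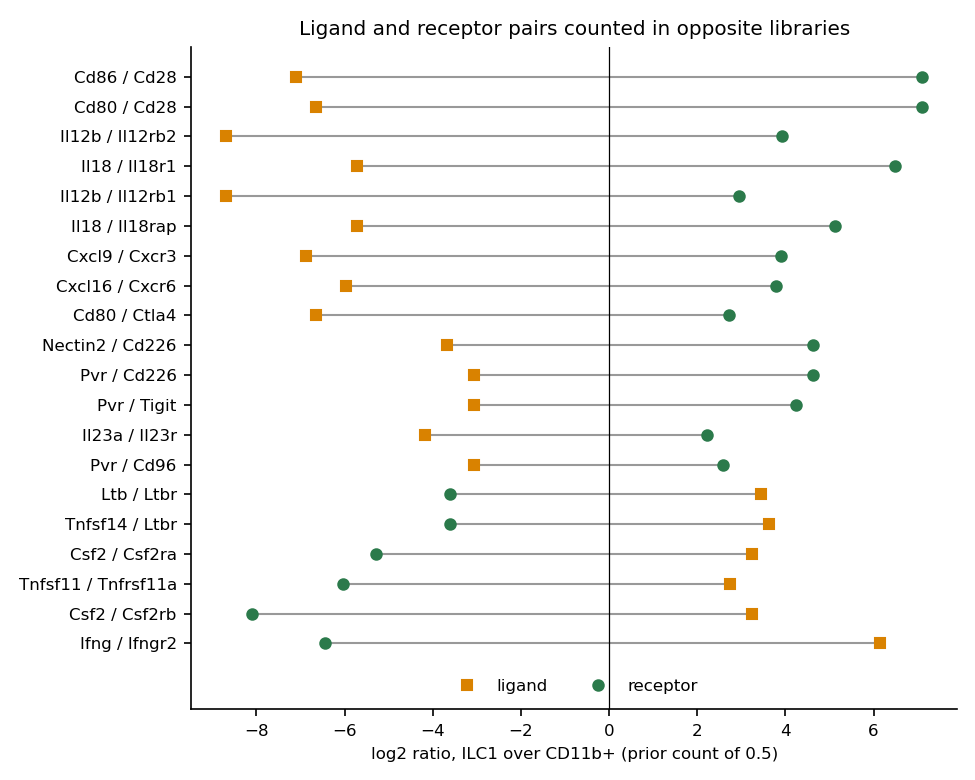
Log2 ratio of ILC1 over CD11b+ (x axis, prior count of 0.5) of the ligand (orange square) and the receptor (green circle) in the 20 pairs counted in opposite libraries. The upper 14 pairs have the ligand on the CD11b+ side and the lower 6 on the ILC1 side.

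Metabolic groups lay toward CD11b+ to unequal extents. Of 37 nuclear genes of oxidative phosphorylation, 0 were counted in either direction, yet all 37 lay below 0, with a median log2 ratio of −0.63 and quartiles of −0.81 and −0.41. Mitochondrially encoded proteins lay farther out, with 10 of 12 higher in CD11b+ and a median of −2.45. Cytochrome b, encoded by mt-Cytb, was at 10026 CPM in CD11b+ and 1765 CPM in ILC1. The subunit mt-Co1 was at 24298 and 5711 CPM, 4.25-fold, and was not counted with unscaled levels. Of 20 glycolysis genes, 4 were higher in CD11b+ (Hk3, Aldoc, Ldhb and Slc16a3) and 0 in ILC1, with a median of −0.95. Slc16a3, the lactate exporter MCT4, was at 355 and 17.8 CPM. Of 24 lipid genes, 9 were higher in CD11b+ and 0 in ILC1, such as Scd1, a fatty acid desaturase, at 19.7 and 0.318 CPM. Of 18 retinoid and aryl hydrocarbon genes, 3 were higher in CD11b+, with a median of −0.62. They were Aldh1a2, the enzyme that makes retinoic acid in gut dendritic cells, at 69.6 and 0.454 CPM, Stra6l and Cyp1b1. Over all genes tested 10.4% were higher in CD11b+, so these 3 and the 4 of glycolysis say little about their groups.

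General cell functions gave medians on either side of 0. Of 32 ribosomal protein genes 0 were counted, with a median of −0.08, which was 0.021 with unscaled levels and 0.0033 with upper-quartile scaling. Of 30 cell cycle genes, Aurkb alone was counted, in CD11b+ at 11.1 and 2.64 CPM and not with unscaled or upper-quartile levels, but the list had a median of −0.96, with 24 of 30 genes below 0. Of 26 immediate early genes, which also respond to tissue dissociation, Tnfaip3 and Dusp2 were higher in ILC1 and Ier3 and Egr3 in CD11b+, with a median of 0.62. Interferon-stimulated genes leaned to CD11b+, with 8 of 29 higher there, 0 in ILC1 and a median of −1.32. Ifitm3, which blocks virus entry, was at 427 CPM in CD11b+ and 6.95 CPM in ILC1, whereas Gbp3 was at 92.4 and 122 CPM. Actb, a common reference gene, was at 4015 CPM in CD11b+ and 870.3 CPM in ILC1 and was counted, while Ywhaz was at 489 and 491 CPM. SLAM family receptors were mixed, with Slamf1, Slamf8 and Slamf9 of 9 measured genes higher in CD11b+, their adaptor Sh2d1a higher in ILC1 and a median of 0.03.

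Most markers of intestinal epithelial cells were higher in the CD11b+ library. Of 35 genes of the intestinal epithelium, 33 were counted there and 0 in ILC1, with a median of −3.16 and close quartiles of −3.31 and −2.97. Their summed level was 582 CPM in ILC1, 2957 CPM in CD11b+ and 962 CPM in iCD8a, and no member was at 0 in either library. The antimicrobial lectin Reg3b was at 442 and 46.4 CPM, and Anpep, an aminopeptidase of enterocytes and myeloid cells, at 516 and 14.7 CPM. Cdh1, which encodes E-cadherin, was not counted, at 208 and 289 CPM, nor was Cdh17, at 72.3 and 19.1 CPM. Goblet, Paneth, tuft and enteroendocrine genes were higher in CD11b+ for 15 of 21, with a median of −2.67 and summed levels of 868 and 163 CPM. The part of epithelial RNA in the number of genes higher in CD11b+ was not tested as a whole. With the genes of both epithelial lists removed, that number was 1346 in place of 1391. The removal takes out the counted members of the lists themselves, so it cannot show what epithelial RNA adds to other genes.

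Granulocyte genes were likewise higher in CD11b+, whose gate does not exclude them. Of 15 measured neutrophil genes, 9 were counted there and 0 in ILC1, with a median of −4.89, or −4.41 with genes at 0 set to their bound. Mmp8 was at 23.5 CPM in CD11b+, at least 172-fold higher than in ILC1, where it had 0 counts. The granule gene Mpo was at 0.0354 CPM, a single count, in CD11b+ and at 0 in ILC1, and S100a8 was at 3.62 and 0.636 CPM. Ly6g and Elane, also in the list, had 0 counts in both libraries. Of 12 measured eosinophil and mast cell genes, 7 were counted in CD11b+ and 0 in ILC1, with a median of −4.72, or −3.85 at the bound. Siglecf, a receptor of eosinophils and some macrophages, was at 89.3 and 0.545 CPM, and Epx, the eosinophil peroxidase, at 0.177 CPM and 0. Summed levels were 2244 CPM in CD11b+ and 52.8 CPM in ILC1 for the neutrophil list, which includes Il1r2, Mmp9 and Trem1, genes that other myeloid cells also express. They were 387 and 60.9 CPM for the eosinophil and mast cell list. B and plasma cell genes were counted in CD11b+ for 2 of 7, Bank1 and Blnk, and in ILC1 for 0. The summed level of that list was nevertheless higher in ILC1, at 323 CPM against 207 CPM in CD11b+. Plasmacytoid dendritic cell genes were counted in CD11b+ for 6 of 17 and in ILC1 for Pacsin1, with a median of −2.57. Their summed levels were close, at 523 CPM in ILC1 and 567 CPM in CD11b+. Of 6 measured stromal, endothelial and erythroid genes 0 were counted, and the summed level of the list was 335 CPM in ILC1 and 215 CPM in CD11b+.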

How the data were processed

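Raw counts of reads, listed by Ensembl gene ID, were deposited by the authors for 1 library per population. Per the series' design text, the authors aligned reads with TopHat and counted them with HTSeq. The submitters' processing notes name CASAVA 1.9 and TopHat2. Build, annotation and strand setting are not given in the sources here. Genes that overlap on opposite strands can therefore not be told apart, and coordinates are printed for the RefSeq windows alone. The 5 rows that name no gene stayed out of library sizes and comparisons.

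Symbols were looked up in GENCODE by ID (35449 of 37224 matched). TMM factors (edgeR 4.0.16, R 4.3.3) over the 3 libraries were 0.992 for ILC1 and 0.925 for CD11b+. Folds have 95% Clopper-Pearson intervals of the conditional binomial (scipy 1.17.1, numpy 2.4.6, pandas 2.3.3, Python 3.11.15); matplotlib 3.10.9 drew the figures. Without molecular identifiers, reads can be copies of a molecule, so intervals and floors cover counting error only. A gene at 0 is compared with a floor of 3 counts per library. With 1 library per group there is no residual spread, so no test was run and no p-value is given; DESeq2 1.42.0 served for size factors alone. The steps were tested on simulated data.

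The comparison, the 47 lists (959 symbols, 936 of them found, 99 in more than one list), the 64 pairs and the motifs were chosen from general knowledge with earlier results of these data known. Medians run over members with at least 1 CPM in either library and use a prior count of 0.5. Named were the sort markers, the 15 protein-coding genes of each direction whose near bound was largest among those with 20 CPM or more, those with the most counts, 3 genes on each side of the fold threshold, and members of lists and pairs. A few genes named by the rule are left out. Alternatives were other scalings, level minimums and folds, thinning to 22181660 counts, and removal of sets of genes.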

Additional observations from a re-analysis of the deposited data

Results flagged for a closer look

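Part of each library lay outside the gene counts or outside the annotation, and was used in no comparison. Non-unique alignments came to 34.5% of everything tallied for ILC1 and 30.5% for CD11b+. Reads outside any annotated gene came to 11% and 8.56% in the same order. Ambiguous reads, which overlap more than one gene, came to 0.889% and 0.922%. IDs outside the annotation took 0.484% and 0.43% of gene counts, and they stayed in the totals and in the counts of genes without being named. Because reads that map to several places were left out, members of families with near-identical copies, such as the Klra, H2, Gimap and granzyme genes, have uncertain levels.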

How the results depend on the processing

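The numbers of genes counted, 645 in ILC1 and 1391 in CD11b+, depended on the thresholds more than on the scaling. With no minimum level they were 976 and 2286, and at a fold of at least 2 with a near bound of at least 1 they were 1830 and 2251. A minimum of 20 CPM left 881 in CD11b+, and a fold of at least 8 left 297 in ILC1. The other alternatives stayed within 1.5 times of both numbers: unscaled levels gave 704 and 1321, DESeq2 factors 646 and 1396, upper-quartile factors 692 and 1345, and thinning to equal depth 644 and 1388. Unscaled levels shifted the median log2 ratio by 0.10, and the share of counted genes that were ILC1 genes lay between 31.6% and 34.8% across scalings. List medians changed sign for the interleukin 12, interleukin 18 and interferon gamma axis when members below 1 CPM were included (−0.15), for MHC class I genes (0.054 unscaled, 0.036 upper quartile) and for ribosomal proteins (0.021 and 0.0033). In 11 of 47 lists some alternative moved the median by more than 1.5-fold. For inhibitory NK receptors (2.59) it lay between 1.85 and 1.93 with DESeq2 or upper-quartile factors, with mitochondrial or epithelial genes removed and with all members found, each of which measured 14 genes in place of 13. The others moved with the minimum level alone. Medians over all members found were −1.88 for chemokines, −1.16 for integrins, −2.35 for the prostaglandin pathway, −3.43 for eosinophil and mast cell, −3.70 for neutrophil, −1.23 for B and plasma cell and −1.43 for stromal, endothelial and erythroid genes. Over members with at least 5 CPM they were 2.34 for ILC2 and ILC3, −3.28 for chemokines, −0.99 for B and plasma cell, −1.32 for plasmacytoid dendritic cell and −0.21 for stromal, endothelial and erythroid genes. No paired analysis was possible because each population had 1 library. That limits every value here, since the spread between animals is unknown, and levels near the floors of 0.136 and 0.106 CPM rest on few counts.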

Other observations

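Some gene families that no list held were counted together in one direction. They were picked after their values had been seen. All 8 measured Gimap genes, GTPases of lymphocyte survival that sit in a cluster, were higher in ILC1, with a median log2 ratio of 3.50. Gimap4 was at 1145 CPM in ILC1 and 98.0 CPM in CD11b+, and Gimap6 at 1055 and 65.4 CPM. In the opposite direction, 7 of 8 measured Cd300 genes, lipid-binding receptors of myeloid cells, were higher in CD11b+, with a median of −5.55, and so were all 3 measured Pilr genes. Cd300a was at 518 CPM in CD11b+ and 4.32 CPM in ILC1, and Pilra at 336 and 2.0 CPM.

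Broad families can be read against the 4.83% of all genes tested that were higher in ILC1 and the 10.4% that were higher in CD11b+. Of 26 cytochrome P450 genes (Cyp), 9 were higher in CD11b+ (34.6%) and 0 in ILC1, and of 23 myosins (Myo), 9 (39.1%) and 2. Of 241 measured solute carriers (Slc), 34 were higher in CD11b+ (14.1%) and 5 in ILC1 (2.07%). Zinc finger genes (Zfp) had a median of 0.66 over 294 genes, with 11 counted in ILC1 (3.74%) and 7 in CD11b+ (2.38%). Of 343 long non-coding genes, 19 were counted in ILC1 (5.54%), near the share of all genes, and 13 in CD11b+ (3.79%). Their median was 0.55.

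Xist, which is expressed from the inactive X chromosome of female cells, was at 408 CPM in ILC1 and 369.6 CPM in CD11b+, and the Y-linked gene Ddx3y was at 235 and 109.8 CPM, so transcripts of both kinds were present in both libraries.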
